A study of Mus musculus with 6 samples.

Results

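The pyruvate dehydrogenase complex and the enzymes that switch it on and off were followed as 10 genes, taken by symbol from the deposited expression table. They were 4 pyruvate dehydrogenase kinases (Pdk1, Pdk2, Pdk3 and Pdk4), the phosphatase Pdp1 and 5 subunits of the complex (Pdha1, Pdhb, Dlat, Dld and Pdhx). All 10 were present among the 13843 genes of the table. The RNA came from 6 mouse hearts at E12.5 on a C57BL/6 background, 1 embryo per library, from which only the ventricles were kept. Embryos of the knockout group were labelled Vhl(flox/flox) with Nkx2.5(Cre/+), so that Cre recombinase, made from the Nkx2-5 locus in heart muscle progenitors, deletes the floxed part of Vhl. Control embryos were labelled Vhl(flox/flox) with Nkx2.5(+/+), and so carried the same floxed alleles without Cre. No embryos with Cre and intact Vhl were analysed here, so loss of Vhl and the Cre allele cannot be told apart. Knockouts 1, 2 and 3 came from litters 1, 2 and 4, and controls 1, 2 and 3 from litters 1, 2 and 3.

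The complex sits in the mitochondrial matrix and turns pyruvate, the end product of glycolysis, into acetyl-CoA for the tricarboxylic acid cycle. Its kinases phosphorylate the alpha subunit of the pyruvate dehydrogenase component and stop the reaction, and its phosphatases remove the phosphate and restart it. The product of Vhl targets hypoxia-inducible factors (HIF) for degradation. Pdk1 is a well known HIF target gene, by which cells under low oxygen hold pyruvate back from conversion to acetyl-CoA.

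The libraries held 9067805 to 12592902 reads over the table. Values are the deposited normalized signal, reads per gene divided by 1 factor per library, on a scale close to CPM. The targeted gene went against 1 label: Vhl was at 11.1 in knockout 1, 10.3 in knockout 2 and 34.5 in the library labelled knockout 3, against 33.7, 36.3 and 38.6 in controls 1 to 3. Knockouts 1 and 2 were therefore compared with the 3 controls, the library labelled knockout 3 is given apart, and results with all 6 libraries stand beside. Because that library was set apart for its Vhl value, differences of genes that follow Vhl across the libraries are partly circular. All 12 listed cardiomyocyte markers were in the table, with a summed signal of 36158 to 40219 in knockouts 1 and 2 and 34723 to 42503 in controls.

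In knockouts 1 and 2 the kinases moved in opposite directions. Pdk1 rose to 219% of its control level and Pdk2 fell to 58.7%. Pdk3 averaged 119% and Pdk4 73.5% of the control mean, neither of which passed the test. Every subunit of the complex, and Pdp1, had a lower mean in the knockouts, at 78.7% to 90.9% of the control mean. Of the 10 genes, 1 was called higher and 1 lower by limma at an adjusted p under 0.05 over all genes, where 3.01% of all genes were called higher and 1.24% lower. Their values in knockouts 1 and 2 lay wholly above those of the controls for 2 genes and wholly below for 7, against 18.1% and 17% of all genes. The log2 fold change was below 0 in 8 of the 10, against 51.8% of all genes.

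**Figure D1:**
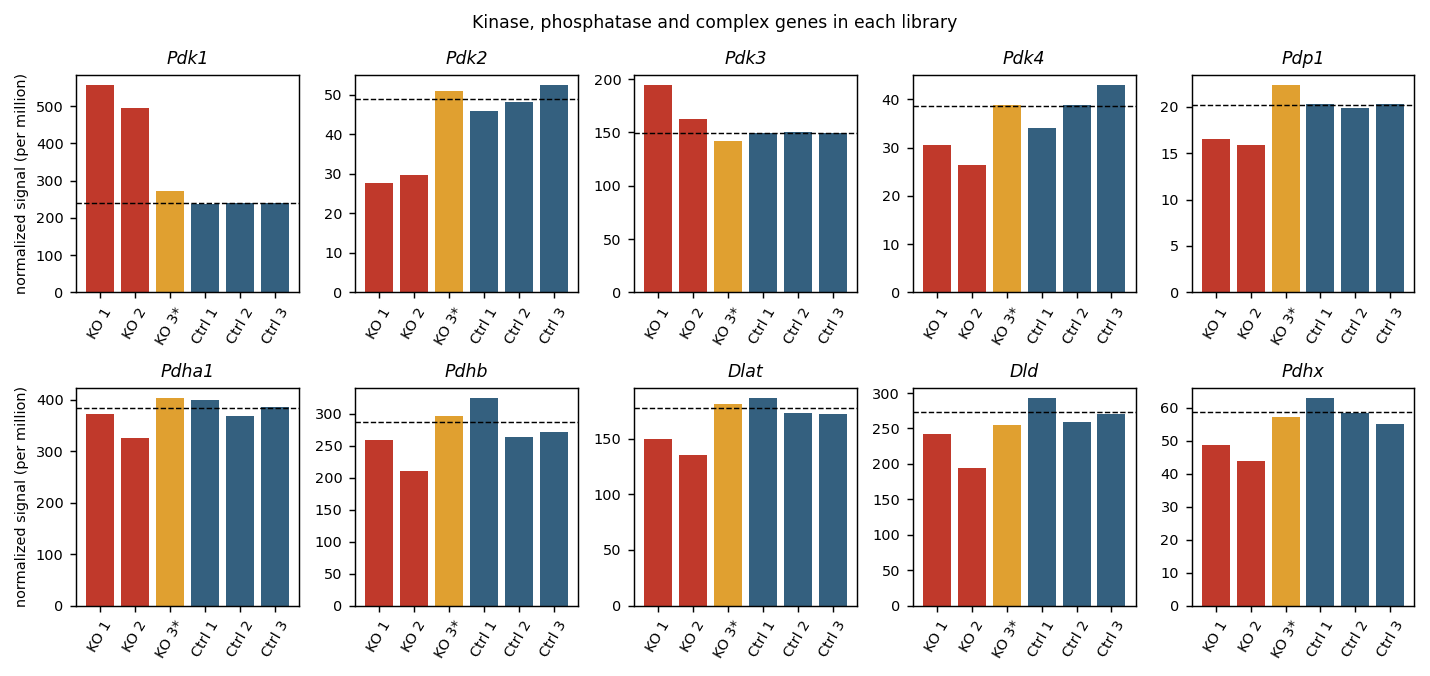
Normalized signal (y axis, close to CPM, from 0) of each of the 10 genes in each library (x axis: KO, knockout; Ctrl, control). Bars are single embryos, the dashed line is the mean of the 3 controls, and the asterisk marks the library labelled knockout 3, whose Vhl level went against its label; Pdk1 stands at 557 and 494 in knockouts 1 and 2, above every control.

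Pdk1 (ENSMUSG00000006494, chr2:71873224-71903858, plus strand, GRCm38) encodes the kinase that HIF is best known to induce. Its signal was 557 in knockout 1, 494 in knockout 2 and 273 in the library labelled knockout 3, against 238, 241 and 239 in controls 1 to 3. Both knockouts lay far above all controls, which differed from one another by less than the counting error of 1 library (2.16% at the fewest reads, 2148). The log2 fold change was 1.13 ± 0.07 (SE, adjusted p = 0.00025, limma), the 29th smallest p of all genes. It was 1.22 within litter 1 and 1.03 within litter 2.

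Pdk2 (ENSMUSG00000038967, chr11:95026258-95041354, minus strand) encodes a kinase isoform found in most tissues. It had a signal of 27.6 in knockout 1, 29.8 in knockout 2 and 50.9 in the library labelled knockout 3, against 45.8, 48.3 and 52.5 in controls 1 to 3. The 2 knockouts did not overlap with the controls, and the library labelled knockout 3 lay inside the control range. The log2 fold change was -0.75 ± 0.09 (SE, adjusted p = 0.0052, limma), with -0.71 in litter 1 and -0.68 in litter 2. Without knockout 1 the fold change was -0.69 and the call was lost (adjusted p = 0.053). Between the littermate pairs, fitted with a litter block, both kinases kept their calls (Pdk1 log2 1.13 ± 0.09, adjusted p = 5.8e-06; Pdk2 -0.69 ± 0.10, adjusted p = 0.0012).

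Pdk3 (ENSMUSG00000035232, chrX:93764607-93832201, minus strand), an isoform that is comparatively insensitive to pyruvate, reached 195 in knockout 1 but 162 in knockout 2. The library labelled knockout 3 had 142, and controls 1 to 3 had 149, 150 and 149. The 2 knockouts lay above the controls, but they differed more from each other (0.26 on the log2 scale) than knockout 2 did from its littermate (0.11). Its log2 fold change of 0.25 ± 0.09 did not pass (adjusted p = 0.19).

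Pdk4 (ENSMUSG00000019577, chr6:5483351-5496309, minus strand) is the isoform induced by fasting and fatty acids in heart and muscle. Its signal was 30.5 in knockout 1, 26.4 in knockout 2 and 38.8 in the library labelled knockout 3, against 34.1, 38.9 and 43.0 in controls 1 to 3. Both knockouts lay below all controls, knockout 1 close to its littermate control 1, and the log2 fold change of -0.43 ± 0.12 did not pass (adjusted p = 0.11). Within litter 1 the difference was -0.16 and within litter 2 it was -0.54.

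The letters upstream of the 4 kinase genes are shown because HIF binds DNA at a short core, ACGTG or GCGTG, and these genes did not move alike. Each run is 250 bases that end at the base before the transcript start, read 5′ to 3′ on the gene's strand, from RefSeq on GRCm38.p6. Capitals mark the cores on either strand.
Pdk1, chr2:71872974-71873223, plus strand: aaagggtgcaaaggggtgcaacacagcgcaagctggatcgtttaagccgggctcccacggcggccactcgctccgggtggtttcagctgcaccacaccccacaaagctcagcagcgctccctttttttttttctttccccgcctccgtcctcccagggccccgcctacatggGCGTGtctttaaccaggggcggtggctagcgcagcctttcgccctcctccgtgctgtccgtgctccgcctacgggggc
Pdk2, chr11:95041372-95041621, minus strand: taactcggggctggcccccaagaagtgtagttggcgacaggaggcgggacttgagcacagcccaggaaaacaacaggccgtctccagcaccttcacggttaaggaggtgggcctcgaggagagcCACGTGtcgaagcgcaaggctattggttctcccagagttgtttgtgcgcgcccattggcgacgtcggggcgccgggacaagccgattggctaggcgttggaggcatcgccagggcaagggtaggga
Pdk3, chrX:93832151-93832400, minus strand: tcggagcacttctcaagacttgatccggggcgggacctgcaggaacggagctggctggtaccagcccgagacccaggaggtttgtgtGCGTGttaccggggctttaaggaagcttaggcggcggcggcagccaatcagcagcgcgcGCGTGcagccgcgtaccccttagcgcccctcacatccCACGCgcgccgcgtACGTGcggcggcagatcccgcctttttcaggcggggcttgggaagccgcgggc
Pdk4, chr6:5496279-5496528, minus strand: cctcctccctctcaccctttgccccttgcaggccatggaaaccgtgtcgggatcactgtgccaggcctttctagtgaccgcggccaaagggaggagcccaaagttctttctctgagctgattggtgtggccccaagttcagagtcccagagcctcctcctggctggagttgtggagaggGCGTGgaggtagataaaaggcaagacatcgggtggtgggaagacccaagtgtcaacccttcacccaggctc

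A core stood 78 bases before the start of Pdk1 and 71 before that of Pdk4, both GCGTG on the gene's strand. The Pdk2 run held 1 palindrome that reads as ACGTG on both strands, 126 bases before the start, and the Pdk3 run held 4 cores. The table held a second start window for Pdk1 and for Pdk2, with 0 cores in each. Of 32851 such windows over 27025 genes, 38.6% held a core. Each of the 4 kinases had a core in the window shown, Pdk2, which fell, as well as Pdk1, which rose. A match is a description of the letters, not a site of binding.

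Ratios of 2 genes within a library do not depend on its scaling factor. The log2 ratio of Pdk1 to Pdk2 was 4.33 in knockout 1, 4.05 in knockout 2 and 2.42 in the library labelled knockout 3, against 2.38, 2.32 and 2.19 in controls 1 to 3. The knockout mean exceeded the control mean by 1.90, a 3.73-fold change of the ratio. The 2 knockouts stood apart from all 4 other libraries, which lay close together. Ratios of Pdk1 to Pdk3 and to Pdk4 were 1.84-fold and 2.97-fold higher. Over 13 ratios within the group of genes, the exact two-sided permutation test gave p = 0.2 for each, before and after Benjamini-Hochberg adjustment. The two-sided p was taken as 2 times the p of 1 side. In that form 0.2 is the smallest value for 2 against 3 libraries, so the test cannot tell the ratios apart.

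Levels of different genes were compared per kilobase of exon. On that scale Pdk3 was the most abundant kinase transcript of the control ventricle, at 58.4 ± 0.173 (SD, n = 3), followed by Pdk1 at 30.8 ± 0.172, Pdk2 at 15.5 ± 1.08 and Pdk4 at 11.01 ± 1.28. All 4 were apart by more than the spread of the controls. In knockout 1 Pdk1 (71.6) came close to Pdk3 (76.0), and in knockout 2 Pdk1 stood at 63.5 and Pdk3 at 63.3. Per kilobase of the longest coding transcript instead, Pdk1 was above Pdk3 in both, at 107 against 92.0 in knockout 1 and 95.3 against 76.7 in knockout 2, so their order in the knockouts depends on the length used. Of the summed kinase level, Pdk1 made up 43.4% in knockout 1, 44.2% in knockout 2 and 29.9% in the library labelled knockout 3, against 26.1% to 27.1% in controls. Pdk2 made up 5.30% and 6.55% in knockouts 1 and 2, against 12.8% to 14.1% in controls. The 4 kinases together reached 165 and 144 in knockouts 1 and 2, against 113 to 118 in controls, so the sum was higher although Pdk2 and Pdk4 had lower values. Set against Pdha1, whose protein they phosphorylate, the summed kinase level was 1.65 in knockout 1, 1.65 in knockout 2 and 1.09 in the library labelled knockout 3, against 1.06 to 1.18 in controls. These levels depend on the exon lengths assumed, and no test was made of them.

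**Figure D2:**
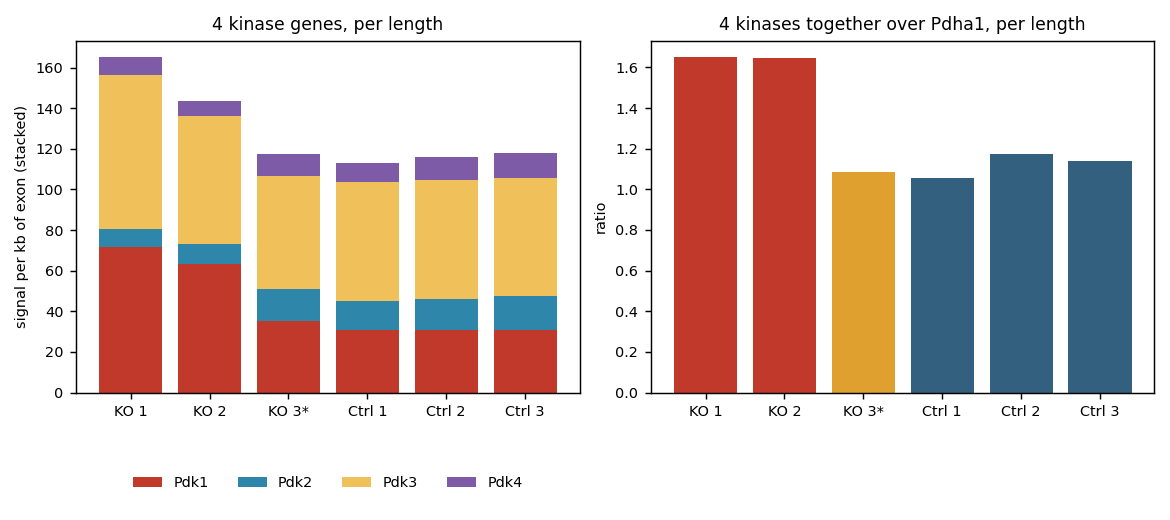
Left, signal per kilobase of exon of the 4 kinase genes, stacked (y axis), in each library (x axis). Right, their sum divided by the per-kilobase signal of Pdha1; the ratio is 1.65 in each of knockouts 1 and 2 and 1.06 to 1.18 in the controls, with the library labelled knockout 3 (asterisk) at 1.09.

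Pdp1 (ENSMUSG00000049225, chr4:11958184-11966452, minus strand), a phosphatase that reactivates the complex, had a signal of 16.5 and 15.9 in knockouts 1 and 2. The library labelled knockout 3 had 22.3, against 20.3, 19.9 and 20.2 in controls 1 to 3. The knockouts lay below all controls, but at 181 to 244 reads per library its counting error was up to 7.43%. Its log2 fold change of -0.30 ± 0.10 did not pass (adjusted p = 0.18), nor did it between littermates (adjusted p = 0.22). The ratio of Pdk1 alone to Pdp1 was 2.73-fold higher in knockouts 1 and 2. It does not stand for all kinases, since Pdk2 and Pdk4 had lower values. The 4 kinases summed per kilobase of exon, not divided by Pdp1, were 1.33-fold higher. That value is not on the scale of the 2.73-fold ratio, and the ratio of the kinase sum to Pdp1 was not computed.

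All 5 subunit genes had log2 fold changes below 0, from -0.34 to -0.14 with a median of -0.32, beside a median of -0.0082 over all genes. None of the 5 passed in the comparison of 5 libraries, where the smallest adjusted p was 0.066. Between the littermate pairs, fitted with a litter block, 4 of the 5 were lower, where 3.21% of all genes were called lower and 4.92% higher. That fit has 1 residual degree of freedom, and its p-values draw largely on the spread of other genes. It shares its knockouts and 2 controls with the comparison of 5 libraries and is no independent support.

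Pdha1 (ENSMUSG00000031299, chrX:160122209-160138413, minus strand), the alpha subunit that carries the regulatory phosphorylation sites, was the subunit that differed least. It had 374 in knockout 1, 326 in knockout 2 and 403 in the library labelled knockout 3, against 400, 368 and 386 in controls 1 to 3. Knockout 1 lay inside the control range, and the log2 fold change of -0.14 ± 0.08 did not pass in either comparison (adjusted p = 0.45, and 0.41 between littermates). Its exons share 603 bases with those of Map3k15 on the other strand, which the libraries cannot separate, and Map3k15 was at 8.24 and 6.40 in knockouts 1 and 2 and 2.55 to 3.61 in controls.

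Pdhb (ENSMUSG00000021748, chr14:8165996-8173025, minus strand) encodes the beta subunit of the same component. Its signal was 259 in knockout 1, 211 in knockout 2 and 297 in the library labelled knockout 3, against 324, 263 and 272 in controls 1 to 3. Knockout 1 was barely below control 2, and the log2 fold change of -0.29 ± 0.12 did not pass (adjusted p = 0.27). Each knockout was nevertheless lower than its own littermate by the same amount, -0.32 in litter 1 and -0.32 in litter 2 (littermates, adjusted p = 0.033).

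Dlat (ENSMUSG00000000168, chr9:50634633-50659780, minus strand), the transacetylase that forms the core of the complex and passes the acetyl group to coenzyme A, had 150 and 135 in knockouts 1 and 2. The library labelled knockout 3 had 181, and controls 1 to 3 had 186, 173 and 172. The knockouts were clearly below the controls, with a log2 fold change of -0.32 ± 0.08 (adjusted p = 0.066; littermates, 0.025). With DESeq2 on the recovered reads Dlat was called lower (adjusted p = 0.016), as the 1 subunit so called, where that tool called 1.99% of all genes lower and 3.97% higher.

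Dld (ENSMUSG00000020664, chr12:31331277-31351453, minus strand), the dihydrolipoyl dehydrogenase that several mitochondrial complexes share, had 242 in knockout 1, 195 in knockout 2 and 255 in the library labelled knockout 3. Controls 1 to 3 had 293, 259 and 270. The library labelled knockout 3 was itself just below the controls. The log2 fold change was -0.33 ± 0.10 (adjusted p = 0.14; littermates, 0.027).

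Pdhx (ENSMUSG00000010914, chr2:103021075-103073513, minus strand) encodes the protein that anchors Dld to the core. Its signal was 48.6 in knockout 1, 43.9 in knockout 2 and 57.3 in the library labelled knockout 3, against 62.9, 58.3 and 55.0 in controls 1 to 3. It had the largest difference among the subunits, -0.34 ± 0.09, which did not pass with 5 libraries (adjusted p = 0.094) and passed between littermates (0.026).

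The embryos of litters 1 and 2 differed in the same direction for every subunit. The littermates of litter 1 were above those of litter 2 for all 5, by 0.14 to 0.31 on the log2 scale between the knockouts and by 0.10 to 0.30 between the controls. For Pdhb it was 0.30 between the knockouts and 0.30 between the controls, and for Dlat 0.15 and 0.10. Each value is from 1 embryo, and the share of all genes that did likewise was not counted. No litter difference particular to the subunits is therefore read from this. Of the other members, Pdp1 was above in litter 1 in both groups and Pdk2 below in both (-0.10 and -0.075). Pdk1, Pdk3 and Pdk4 were above between the knockouts and below between the controls. Such differences between embryos of the 2 litters enter the spread where litter is not a term. Without knockout 2 the log2 fold changes were -0.042 for Pdha1, -0.14 for Pdhb and -0.18 for Dld, and without knockout 1 they were -0.24, -0.44 and -0.49, so the sizes for these 3 rest on which knockout is used. Relative to Pdha1 in the same library, the 4 other subunits were slightly lower in knockouts 1 and 2, with fold changes of the ratio from 0.868 to 0.903. For Pdhb that ratio was log2 -0.53 and -0.63 in knockouts 1 and 2 and -0.30 to -0.50 in controls.

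**Figure D3:**
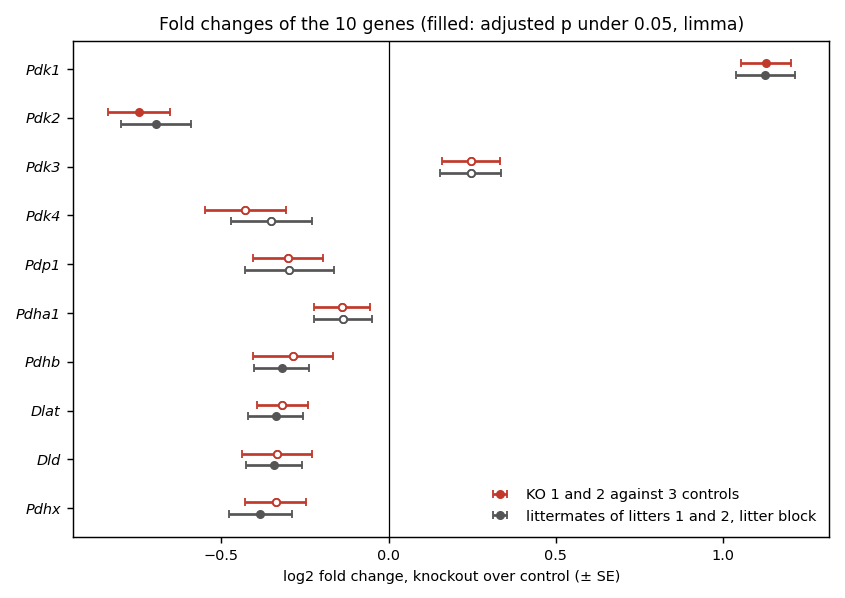
Log2 fold change, knockout over control (x axis), with its SE (bars), of each of the 10 genes (y axis) in 2 fits: knockouts 1 and 2 against 3 controls (red) and the littermate pairs fitted with a litter block (grey). Filled points passed an adjusted p under 0.05; Pdk1 and Pdk2 are filled in both, and 4 subunits in the littermate fit alone.

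Some other measures also differed between knockouts 1 and 2 and the controls. Mitochondrially encoded genes made up 5.60% of the summed signal in knockout 1, 5.02% in knockout 2 and 7.25% in the library labelled knockout 3, against 6.38% to 7.13% in controls. Several marker lists, of other cells or of atrial cardiomyocytes, had higher sums. The summed epicardial list (4 of its 10 genes called higher) was at 706 to 872 in knockouts 1 and 2, against 352 to 438 in controls. The smooth muscle and pericyte list (3 of 7 called higher) was at 2578 to 2587, against 1345 to 1665. The endothelial and endocardial list (3 of 10 called higher) was at 1865 to 1866, against 1596 to 1673. The atrial list (1 of 7 called higher) was at 4131 to 5251, against 2857 to 3572. Its median log2 fold change was only 0.094, so that sum does not speak for the whole list. The erythroid list (0 of 10 called) was at 7083 to 15597, against 6421 to 14488, and the fibroblast and cushion mesenchyme list (0 of 9), the macrophage list (0 of 7) and the neural list (0 of 3) also held no called gene. No gene of these lists was at 0 in any library, and no gene of the cardiomyocyte list was called in either direction. The median log2 fold change of the cardiomyocyte list was -0.16, beside -0.0082 over all genes, although its summed signal overlapped between the groups. Over all genes, 3.01% were called higher and 1.24% lower. The part of these marker lists in the results was not tested. In bulk tissue, fewer cells of a type and less RNA per cell cannot be told apart.

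With all 6 libraries as labelled, neither Pdk1 nor Pdk2 passed. The log2 fold change of Pdk1 was 0.81 ± 0.23 and that of Pdk2 was -0.48 ± 0.21 (adjusted p = 0.77 for each, limma). That fit called 0% of all genes, with 859 genes and 2 of the 10 at an unadjusted p under 0.05, namely Pdk1 and Dld. On the recovered reads edgeR called 0 genes and DESeq2 called 11, with 0 of the 10 among them. In the library labelled knockout 3 itself, Pdk1, Pdp1 and Pdha1 lay above the control range, Pdk3 and Dld below it and the rest inside. The share of all genes outside that range was not counted, so no shift of the 10 genes is read from this.

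Around the complex, genes that bring pyruvate to it or take it elsewhere held more calls than any of the other 5 lists. Of 13 measured genes of pyruvate supply and other fates, 6 rose and 1 fell, where 3.01% of all genes were called higher and 1.24% lower. The list median log2 fold change was 0.10, beside -0.0082 over all genes. The pyruvate kinase gene Pkm was at 3510 in knockout 1, 3153 in knockout 2 and 1683 in the library labelled knockout 3, against 1690, 1693 and 1546 in controls 1 to 3 (log2 1.02 ± 0.11, adjusted p = 0.0023). Ldha, which makes lactate from pyruvate, rose by 1.19 ± 0.10, and Slc16a3, which exports lactate, by 1.68 ± 0.08. Pcx, which carboxylates pyruvate to oxaloacetate, rose by 0.55 ± 0.11, and the malic enzymes Me1 and Me2, which make pyruvate from malate, by 0.81 ± 0.14 and 0.82 ± 0.09. Mpc2, a subunit of the carrier that brings pyruvate into mitochondria, fell to 34.2 and 29.2 in knockouts 1 and 2, against 42.9, 42.8 and 43.1 in controls 1 to 3 (log2 -0.43 ± 0.09, adjusted p = 0.049). Its partner Mpc1, named after its values were seen, was at 35.0 and 30.8, against 38.9, 20.3 and 35.9 in controls 1 to 3, and was not called. Pkm, Ldha, Slc16a3 and Me2 kept their calls whichever of the 5 libraries was left out, Me1 in 2 and Pcx in 1 of the 5, and Mpc2 in none (adjusted p 0.069 to 0.18). Ldhb, Me3 and Gpt, with the smallest p of those not called, had log2 fold changes of -0.29, -0.17 and -0.19.

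Of the other regulators of the complex, 0 of 7 measured genes passed in either comparison. All 7 had a log2 fold change below 0 (median -0.26), against 51.8% of all genes. Named after their values were seen, the other phosphatase Pdp2 was at 8.73 and 5.78 in knockouts 1 and 2 and 7.24 to 10.3 in controls, and the phosphatase regulator Pdpr at 48.3 and 43.7, against 40.9 to 56.8. The 3 with the smallest p were Sirt3, a mitochondrial deacetylase (-0.33 ± 0.11, adjusted p = 0.15), Ppm1k, the phosphatase of the branched-chain dehydrogenase (-0.37 ± 0.16, 0.29), and Sirt5, a mitochondrial desuccinylase (-0.26 ± 0.14, 0.38). Among genes for the lipoate and thiamine cofactors, the thiamine transporter Slc19a2 (0.53 ± 0.14), the lipoyl transferase Lipt2 (0.53 ± 0.16) and the lipoyl synthase Lias (-0.19 ± 0.08) were not called.

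The sister complexes share Dld. Of their 11 measured genes 1 rose, the glycine decarboxylase Gldc, at 12.04 and 12.53 in knockouts 1 and 2 and 7.54, 5.79 and 7.66 in controls 1 to 3 (log2 0.74 ± 0.16, adjusted p = 0.049, and lost when any 1 library was left out, 0.078 to 0.20). The other 10 were not called, where 3.01% of all genes were called higher and 1.24% lower. Of the 11 fold changes, 9 were below 0, against 51.8% of all genes, and the list median was -0.23. For the oxoglutarate dehydrogenase complex, Ogdh had -0.30 ± 0.10 and its core enzyme Dlst -0.23 ± 0.07, and Bckdhb of the branched-chain complex had -0.27 ± 0.11. Between littermates Ogdh (adjusted p = 0.037) and Ogdhl (0.024) were lower, where 3.21% of all genes were called lower and 4.92% higher.

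Over all genes, 1.24% were called lower. Of 9 measured genes that use acetyl-CoA or make it by another route, 2 fell. They were Acss1, the mitochondrial acetyl-CoA synthetase that uses acetate (9.54 and 14.1 in knockouts 1 and 2, against 21.0, 21.6 and 20.0 in controls 1 to 3; log2 -0.79 ± 0.16), and the carnitine acetyltransferase Crat (-0.45 ± 0.10). The first kept its call in 1 of 5 fits that left out a library, and the second in none. The acetyl-CoA carboxylase of the outer mitochondrial membrane, Acacb (-0.54 ± 0.12, adjusted p = 0.054), the cytosolic Acaca (-0.32 ± 0.11) and the citrate carrier Slc25a1 (0.54 ± 0.14) were not called, and the list median was -0.21. Between littermates, where 3.21% of all genes were called lower and 4.92% higher, 4 genes of this list were lower and 1 higher. Acacb (adjusted p = 0.0025) and Acaca (0.035) were added to those lower, and Slc25a1 (0.048) was the higher one.

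Among 16 measured transcription factors and cofactors that are known to act on Pdk genes, 2 fell and 0 rose (median -0.23). Over all genes, 1.24% were called lower and 3.01% higher. Hif1a mRNA was at 185 and 163 in knockouts 1 and 2, against 457, 405 and 447 in controls 1 to 3 (log2 -1.32 ± 0.09), and kept its call whichever library was left out. Rxra, the partner of the PPAR receptors, was at 53.8 and 56.0, against 80.4, 71.2 and 68.4 (-0.41 ± 0.09, adjusted p = 0.049), and lost its call when any 1 library was left out. Ppargc1a, a coactivator of mitochondrial genes (-0.46 ± 0.13), Esrrg, an orphan receptor that it works with (-0.31 ± 0.08), and Foxo3 (0.29 ± 0.08) were not called. Between littermates, where 3.21% of all genes were called lower and 4.92% higher, 5 genes of this list were lower and 1 higher. Those added were Ppargc1a (adjusted p = 0.016), Esrrg (0.048) and its relative Esrrb (0.019) as lower and Myc (0.023), a growth-promoting factor, as higher. Ppara, the receptor through which fatty acids induce Pdk4 in the adult heart and which is named after its values were seen, had a signal of 0.323 and 0.789 in knockouts 1 and 2, against 1.78, 1.01 and 1.47 in controls 1 to 3, with 4 to 16 reads per library. Both knockouts lay below all controls, and the difference did not pass (adjusted p = 0.27, unadjusted p = 0.046, limma).

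**Figure D4:**
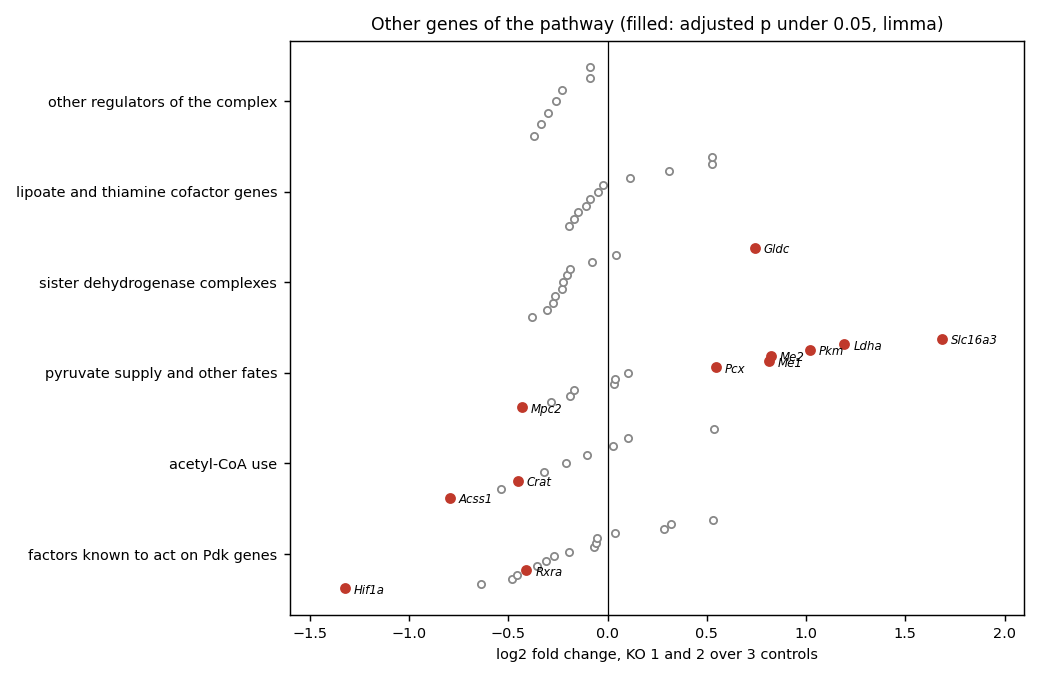
Log2 fold change of knockouts 1 and 2 over 3 controls (x axis) for the genes reported here from 6 lists around the complex (y axis); filled points passed an adjusted p under 0.05 and are named. Filled points above 0 are mostly in the list of pyruvate supply and other fates, where 6 of 13 genes rose, and the other regulators of the complex hold none.

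The genes most like Pdk1 in pattern over the 6 libraries, by the root mean square difference of their log2 values from the control mean, were Pfkp (0.043), Pgk1 (0.046), Jmjd6 (0.068), Ero1l (0.071) and Mif (0.074). Pfkp and Pgk1 encode the glycolytic enzymes phosphofructokinase and phosphoglycerate kinase, Jmjd6 an oxygenase of the nucleus, Ero1l an oxidase of the endoplasmic reticulum and Mif a cytokine. Pfkp, for example, was at 601 in knockout 1, 552 in knockout 2 and 287 in the library labelled knockout 3, against 262, 276 and 261 in controls 1 to 3. In the library labelled knockout 3, Pfkp and Pgk1 (1297, against 1147, 1194 and 1146) stood slightly above the controls, as Pdk1 did. Jmjd6 was also above them, Ero1l barely so (107.8, against at most 107.5), and Mif (304) lay inside the control range (275 to 309). That library was among the 6 used to choose these genes. Their likeness to Pdk1 in it was therefore partly built in, and nothing is concluded from it. The genes most like Pdk2 were mt-Nd5 (0.059), mt-Nd6 (0.070), Igfbpl1 (0.072), mt-Rnr2 (0.075) and Cobl (0.091). Of these, 3 are encoded by the mitochondrial genome: mt-Nd5 and mt-Nd6 are subunits of respiratory complex I, and mt-Rnr2 is a ribosomal RNA. The first of them, mt-Nd5, was at 2555 in knockout 1, 2913 in knockout 2 and 4647 in the library labelled knockout 3, against 4107, 4502 and 4496 in controls 1 to 3. Likeness of pattern over 6 libraries is a description, since these genes share libraries and scaling.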

How the data were processed

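RNA-seq of 6 embryonic ventricles was used as deposited. Per the submitters' processing notes, the authors used CASAVA 1.8.2, cutadapt 1.3 and RSEM 1.2.3 with GRCm38; the annotation release, gene filter and scaling are not given in the sources used here. Per the labels' protocols, each library was made from 500 ng of total RNA with a TruSeq v2 kit and sequenced as single reads of 75 bp. The deposited table holds a normalized signal per gene. In every column 100% of values were whole multiples of 1 step within 0.01 reads, so whole reads were recovered by division (9067805 to 12592902 per library), and no gene was under 1 in more than 3 libraries. Counting intervals (exact Poisson, 95%) cover counting error only. Reads of close gene copies are divided by RSEM and are uncertain.

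Symbols and coordinates came from GENCODE M21 on GRCm38 (13675 of 13843 genes named), promoters from RefSeq. The test was limma 3.58.1 with trend (R 4.3.3) on log2(value + 1), a scale that understates changes of low genes, with knockouts 1 and 2 against 3 controls and Benjamini-Hochberg adjustment over all 13843 genes; the code was checked on simulated counts. Each value is a single embryo, so n is 2 against 3. Libraries were paired by the litters that the labels give, which name 4 where the design text speaks of 3: deviations from the group means correlated at 0.20 in litter 1 and 0.28 in litter 2. The libraries numbered 3 are of different litters (0.012). The knockout mean included the library labelled knockout 3, so the knockout deviations also carry its difference from knockouts 1 and 2. These correlations are therefore no clean measure of litter. Alternatives were all 6 libraries, a litter block, each library left out, pseudocounts of 0.5 and 5, a mean of at least 10, a common total, edgeR 4.0.16 and DESeq2 1.42.0. The comparison of the library labelled knockout 3 with the controls was added after its values were seen. Per-length levels use the union of exons. The 10 genes are named in full, then the called genes of 6 lists and up to 3 more a list with the smallest p, and the 5 genes nearest in pattern to Pdk1 and to Pdk2, leaving out clone names and pseudogenes. 1 gene of the cofactor list is not reported here, so no count or median is given for that list. Members and lists were chosen with earlier results of these data known.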

Additional observations from a re-analysis of the deposited data

Results flagged for a closer look

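Pdk1 in the library labelled knockout 3 stood above the controls while its Vhl level (34.5) lay inside the control range (33.7 to 38.6). The Pdk1 signal was 273 (95% counting interval 263 to 283), against 238 (228.3 to 248.6), 241 (232.2 to 249.9) and 239 (229.3 to 249.1) in controls 1 to 3, so the interval lay wholly above those of the controls. These intervals cover counting error only, not the spread between embryos. The share of all genes whose interval did likewise was not counted, so nothing particular to Pdk1 is read from this. The Pdk1 signal of that library equals 114% of the control mean, where knockouts 1 and 2 averaged 219%. Set alone against the 3 controls, taking the spread of the controls for it, its log2 difference was 0.19 ± 0.08 (limma; unadjusted p = 0.043, adjusted p = 1.00). That comparison called 0% of all genes, with 326 at an unadjusted p under 0.05.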

How the results depend on the processing

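Across 14 alternatives the direction of the fold change of each of the 10 genes was the same in all 140 values, and 131 kept their side of the threshold. With all 6 libraries as labelled, 0 genes were higher and 0 lower, 0 of the 10 either way, Pdk1 was at 0.81, Pdk2 at -0.48 and the difference in the log2 ratio of Pdk1 to Pdk2 at 1.31. With litter as a replicate block, 681 genes were higher and 444 lower, and 5 of the 10 were lower (Pdk2, Pdhb, Dlat, Dld and Pdhx); it changed no other call of the 10. Leaving out 1 library gave 146 to 297 genes higher and 44 to 90 lower (main 416 and 172; the fewest of each without knockout 1), 1 to 1 of the 10 higher and 0 to 1 lower, Pdk1 at 1.04 to 1.21 (adjusted p 0.0013 to 0.0053), Pdk2 at -0.80 to -0.69 (0.011 to 0.053) and the ratio at 1.76 to 2.04. Without knockout 1 or knockout 2, values moved by over 1.5 times from the main fit for Pdk3 (0.12 to 0.38), Pdha1 (-0.24 to -0.042), Pdhb (-0.44 to -0.14) and Dld (-0.49 to -0.18), none of them called. From the fit without knockout 1 to that without knockout 2, Pdk4 went from -0.53 to -0.33, Dlat from -0.39 to -0.24 and Pdhx from -0.41 to -0.27. A lone remaining knockout was taken to vary as the controls do. DESeq2 gave 276 genes lower and 2 of the 10, and a common total per library also 2, Dlat being added each time (adjusted p 0.016 and 0.045). The cause of these changes was not tested. The share of Pdk1 among the kinases rose by 17.2 percentage points per exon union and by 18.2 per longest coding transcript. Depth limits Pdp1 most (181 reads).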
